A study of Homo sapiens with 75 samples.

Results

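REC-1 is an established human cell line grown from mantle cell lymphoma, a B cell cancer that usually overproduces cyclin D1. The arrays of REC-1 cells given rituximab were compared with those of REC-1 cells given PBS, the buffer control, and each change was then set against REC-1 cells given an isotype control antibody. These 9 arrays, 3 per group, were chosen by cell line and treatment from the 75 arrays of the series. The whole series holds 5 mantle cell lymphoma lines (REC-1, Z138, GRANTA-519, HBL-2 and JEKO-1) under 5 treatments (PBS, isotype control, rituximab, the antibody GA101 or obinutuzumab, and both antibodies). The antibodies against CD20 were used at 10 µg/ml each. No source used here gives the dose of the isotype antibody or the hours between treatment and lysis. Each group is a culture of 1 established line in serum-containing medium, and the labels name no immune effector cells. Whether the 3 replicates of a group were grown and treated apart is not stated in the labels, so the tests reflect variation from array to array, and this could be technical only.

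CD20, encoded by MS4A1, is a membrane protein of B cells, and rituximab is a chimeric antibody that binds it and draws it into lipid rafts. In B cells the rafts hold the B cell receptor and its kinases, and signals from the receptor run through SYK and BTK to calcium and NFAT, to NF-kB, and to the kinase ERK. ERK switches on immediate early genes such as EGR1 within the first wave of transcription, and it also induces its own brakes, among them the Sprouty (SPRY) and SPRED proteins. These roles are background and were not measured on these arrays.

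The level of a gene is given as array intensity on the authors' linear scale, and a difference is given on the log2 scale with its standard error. Intensities under 1 were raised to 1 before the logarithm. A gene was called when its adjusted p, from limma with the Benjamini-Hochberg adjustment over all 13879 genes tested, was under 0.05. A called gene is termed firm when its difference against the isotype arrays has the same sign as its difference against the PBS arrays. Levels of different genes come from different probes and are not compared with each other.

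The 9 arrays were alike in median intensity and in correlation, but not in the share of values under 1. That share was 14.1% on PBS replicates 1 and 2 and 13.6% on isotype replicate 3. On the other arrays, among them all 3 rituximab arrays, it was 5.06% to 7.75%. Median intensity was 13.14 to 16.45 on the rituximab arrays and 13.49 to 15.85 on the 6 control arrays, and every pair of the 9 arrays correlated at r = 0.9665 or more. The log2 ratio of 3' to 5' probes lay between 0.024 and 0.201 for GAPDH. For ACTB it ranged more widely, from 0.619 to 1.27, and was highest on isotype replicate 3. The summed intensity of 7 measured B cell markers was 12671 to 13348 with rituximab, 12807 to 14068 with PBS and 11785 to 13783 with the isotype antibody. PAX5, the B lineage factor, had a mean of 4000 with rituximab and 4043 with PBS. Of markers of other cell types, 2 of 7 for T cells, 4 of 6 for NK cells and 6 of 8 for myeloid cells lay under the median intensity of all probe sets with PBS. Their sums over the 9 arrays were 124 to 169, 52.5 to 68.2 and 42.4 to 98.0. Of these markers 10 could be tested. Against PBS 0 of the 10 were called by limma (beside 4.55% of all genes), with 0 at an unadjusted p under 0.05. For erythroid markers 0 of 2 lay under that median, and for epithelial and fibroblast markers 3 of 8. Sums of these lists were 27.18 to 49.35 and 179 to 222, and 0 of their tested members were called, beside 4.55% of all genes.

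MS4A1 read 5838, 6391 and 6073 on the rituximab arrays, 6126, 6434 and 5916 on the PBS arrays and 5738, 5996 and 6020 on the isotype arrays. The 3 groups overlapped. The difference between rituximab and PBS was -0.01 ± 0.053 (adjusted p = 0.97), and it turned to 0.13 with quantile normalization and to 0.18 with the mean of all probe sets of the gene, uncalled in both. CCND1, the gene of cyclin D1, had means of 5482 with rituximab, 5977 with PBS and 5711 with the isotype antibody, a difference of -0.12 ± 0.22 against PBS (adjusted p = 0.91).

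On the authors' scaling more genes rose with rituximab than fell, and with quantile normalization the order was the other way round. Against PBS 632 of 13879 genes were called (4.55%), 440 higher (3.17%) and 192 lower (1.38%). Of these, 620 were firm (4.47%), 433 higher (3.12%) and 187 lower (1.35%); the other 12 had the opposite sign against isotype. With quantile normalization 580 genes were called, 265 higher and 315 lower, so that 45.7% were higher rather than 69.6%. Of the 79 genes named by rule, each called one kept its direction against PBS under that scaling. In whole cultures, fewer cells of a kind and less RNA per cell cannot be told apart. Between the control groups, isotype against PBS, 63 genes were called (0.454%). Against the isotype arrays themselves 717 genes were called (5.17%), 431 higher (3.11%) and 286 lower (2.06%). Past the threshold against both controls in the same direction were 334 genes (2.41%), 229 higher (1.65%) and 105 lower (0.757%). The last count is no independent repeat, since the 3 rituximab arrays enter both comparisons. Leaving out 1 array brought the firm genes to between 393 and 637; the count was 396 without rituximab replicate 2, 402 without PBS replicate 1 and 393 without PBS replicate 2.

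Most firm changes were small, with a median absolute log2 difference of 0.345. Firm genes that changed by 1 or more on the log2 scale numbered 52, 27 higher and 25 lower, but only 9 of them reached an intensity of 50 in the higher of the rituximab and PBS groups, 8 of these higher and 1 lower. The other large falls lay low in the intensity range. The 12 largest rises and the 12 largest falls described below were therefore taken from firm genes that reached 50 and whose 3 rituximab arrays lay outside all 6 control arrays. Members of the gene lists were taken without these limits, by their calls, and some lie near the floor. On all genes tested, 6.35% had their 3 rituximab arrays above all 6 controls and 4.24% below. HBEGF, a growth factor of the EGF family named after its values were seen, was just under that minimum, with means of 49.4 with rituximab, 20.2 with PBS and 20.2 with isotype.

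**Figure D1:**
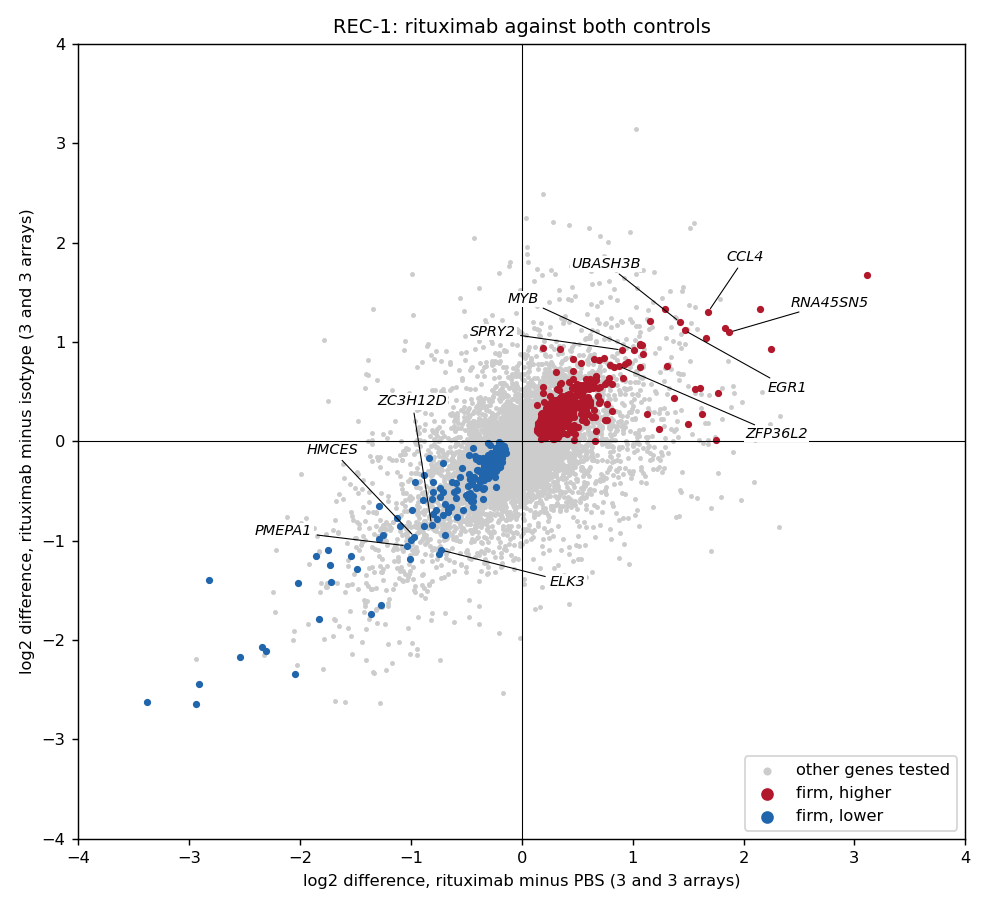
Each point is 1 of 13879 genes in REC-1 cells, with the log2 difference of rituximab from PBS on the horizontal axis and from isotype on the vertical axis, 3 arrays per group. Red points are the 433 firm higher and blue points the 187 firm lower genes; 11 of the named genes carry labels, with CCL4, EGR1, UBASH3B and RNA45SN5 far to the upper right and PMEPA1 and HMCES to the lower left, and because both axes use the same rituximab arrays a diagonal cloud is built in.

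The early response genes of growth factor and antigen receptor signalling were split. EGR1, a zinc finger transcription factor, read 724, 724 and 778 with rituximab, against 248.6, 281 and 276 with PBS and 359, 316 and 352 with isotype. All 3 rituximab arrays lay above all 6 controls, which its choice among the 12 largest rises required. EGR1 rose by 1.47 ± 0.15 against PBS (adjusted p = 2.2e-10), a fold of 2.77, and by 1.12 against isotype. MYC, the growth regulator, read 2922, 2997 and 2861 with rituximab, against 1902, 1942 and 1612 with PBS and 2100, 2155 and 2134 with isotype. It rose by 0.69 ± 0.061 (adjusted p = 1e-12) against PBS and by 0.46 against isotype, again with no overlap. EGR3, a relative of EGR1, read 85.6, 78.8 and 87.4 with rituximab, 35.7, 69.2 and 43.9 with PBS and 65.7, 72.4 and 65.4 with isotype. Its rise of 0.82 ± 0.21 against PBS was called (adjusted p = 0.014), but the call ended without rituximab replicates 1 or 3 or PBS replicates 1 or 3 (0.61 to 1.08 over all single omissions), and against isotype the difference was 0.31 (adjusted p = 0.57).

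Of 19 tested immediate early genes 4 were higher and 1 lower against PBS (26.3% called, beside 4.55% of all genes), and the median difference was 0.02, beside a median of 0.01 over all genes. FOS at 0.02, JUN at -0.12 and NR4A1 at -0.39, classic members of the list, were not called. The fourth rise was MAFF, a small bZIP factor, with means of 11.5 against 5.54, too near the floor to hold: 1.09 became 0.00 with values under 16 set to 16, -0.24 with the mean of its probe sets, and the call ended without any 1 of the 6 rituximab and PBS arrays (0.86 to 1.25). KLF2, a factor of resting lymphocytes, was the member that fell, from 171.5, 162 and 164 with PBS to 103, 111 and 108 with rituximab, with 152, 142 and 135 in the isotype group. Its difference was -0.63 ± 0.13 (adjusted p = 0.0016) against PBS and -0.41 (adjusted p = 0.06) against isotype; with the mean of its probe sets the latter turned to 0.30 and the former, at -0.97, lost its call. KLF2 was the 1 called gene of the 12 tested on the quiescence list (8.33%, beside 4.55% of all genes). The list also holds FOXO1 at -0.11 and BTG1 at -0.21, and 4 of the 12 had an unadjusted p under 0.05.

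Of the brakes of ERK signalling and other feedback genes 5 of 16 tested members were called (31.2%, beside 4.55% of all genes), all higher (3.17% of all genes), with a median of 0.16, beside 0.01 over all genes. SPRY2, an inhibitor of receptor tyrosine kinase signalling upstream of ERK, read 104, 103 and 90.5 with rituximab, 57.8, 61.4 and 41.9 with PBS and 54.6, 48.9 and 53.5 with isotype. Its choice among the 12 largest rises required the rituximab arrays to lie above all controls. The rise was 0.90 ± 0.11 (adjusted p = 4e-08) against PBS and 0.92 against isotype. SPRED1, which recruits neurofibromin to shut off RAS, read 299, 341 and 313 with rituximab, 140, 151 and 163 with PBS and 200, 204 and 165 with isotype, a rise of 1.07 ± 0.16 (adjusted p = 3e-06) against PBS and of 0.75 against isotype. Both genes kept their calls against PBS in each of the 16 alternative fits, while against isotype SPRED1 was at 0.57, uncalled, with the mean of its probe sets. SPRED2 and the ETS factor ETV5 rose too, by 1.31 and 2.15, from low levels: SPRED2 had means of 18.6 with rituximab and 8.17 with PBS, and ETV5 means of 19.0 and 4.90. With values under 16 set to 16 they shrank to 0.23 and 0.25 and lost their calls; ETV5 also lost it without PBS replicate 1 (1.58 to 2.59 over single omissions). With the filter on REC-1 arrays only ETV5 was at 0.010, and with the mean of probe sets at 0.62, both uncalled. The phosphatase DUSP2, named after its value was seen because it is the fifth called member, rose by 0.71 (adjusted p = 0.00073). DUSP6, the ERK phosphatase, was at -0.12 (adjusted p = 0.98), DUSP4 at 0.19 (adjusted p = 0.97) and ETV4 at -1.25 (adjusted p = 0.31).

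The promoters of EGR1 and SPRY2 are shown because both genes rose and both carry the 9-base motif bound by EGR factors, GCGNGGGCG. The EGR1 stretch also holds CArG boxes, the sites of serum response factor through which ERK reaches this gene in other cells. Each sequence is the 250 bases before the annotated start, on the strand of the gene, from the RefSeq annotation of GRCh38.p14. It is reference sequence and was not measured here. EGR1 is on chromosome 5 (plus strand, chr5:138465229-138465478) and SPRY2 on chromosome 13 (minus strand, chr13:80341127-80341376). Capitals mark the motifs.
EGR1: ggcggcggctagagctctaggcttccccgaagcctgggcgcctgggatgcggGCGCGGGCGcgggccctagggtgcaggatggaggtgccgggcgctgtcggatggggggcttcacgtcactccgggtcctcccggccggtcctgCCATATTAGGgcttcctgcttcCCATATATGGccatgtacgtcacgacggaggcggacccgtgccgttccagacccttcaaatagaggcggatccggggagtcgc
SPRY2: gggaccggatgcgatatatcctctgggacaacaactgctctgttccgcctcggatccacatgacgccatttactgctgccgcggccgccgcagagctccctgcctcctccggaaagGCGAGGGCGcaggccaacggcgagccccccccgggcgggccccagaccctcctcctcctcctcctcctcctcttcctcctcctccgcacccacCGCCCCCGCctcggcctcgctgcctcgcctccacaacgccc
In EGR1 the CArG boxes CCATATTAGG and CCATATATGG lie at -105 to -96 and -83 to -74 from the start, and the EGR motif at -198 to -190. In SPRY2 the EGR motif lies at -134 to -126 on the gene's strand and at -41 to -33 on the opposite one.

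Over windows of 300 bases (250 before the start and 50 after, both strands, 1 window per gene), the CArG box was in 1 of the 8 largest rises with a promoter entry (EGR1), in 0 of 10 of the largest falls and in 1.29% of 27305 promoters. The EGR motif was in 2 of the 8 rises, in 2 of the 10 falls (ATOSA and TSC22D3) and in 9.28% of all promoters. The cyclic AMP element TGACGTCA and the AP-1 site TGANTCA were in none of these 18 windows and in 1.98% and 7.76% of all promoters. These are counts of matching letters only.

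Of the 12 largest rises, ranked by the smaller of the differences from PBS and from isotype, the first was CCL4, a chemokine (MIP-1 beta) that B cells release after receptor engagement and that attracts T cells and monocytes. Its intensity was 829, 852 and 782 with rituximab, 254, 262 and 250 with PBS and 381, 320 and 299 with isotype. The rise was 1.68 ± 0.14 against PBS (adjusted p = 3e-13), a fold of 3.21, and 1.31 against isotype (adjusted p = 8.8e-10). UBASH3B, a phosphatase that acts on SYK family kinases, read 53.4, 52.5 and 59.6 with rituximab, 19.3, 20.5 and 21.9 with PBS and 24.2, 20.4 and 27.8 with isotype. It rose by 1.42 ± 0.30 (adjusted p = 0.0014) against PBS and by 1.202 against isotype. DCAF12, a substrate receptor of a ubiquitin ligase, read 184, 173 and 179, against 84.8, 74.0 and 99.7 with PBS and 90.9, 89.7 and 93.1 with isotype. That is a rise of 1.06 ± 0.14 (adjusted p = 1.5e-07).

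Genes of several functions made up most of the other rises. MYB, a transcription factor of blood progenitors, read 461, 482 and 474 with rituximab, 245, 270 and 194 with PBS and 281, 235 and 235 with isotype, a rise of 1.01 ± 0.09 (adjusted p = 1.1e-12). FCMR, the Fc receptor for IgM, read 234, 245 and 264, against 128, 127 and 100.7 with PBS and 118, 129 and 128 with isotype, a rise of 1.07 ± 0.094 (adjusted p = 1e-12). The rule of choice required both to be clear of the controls in every array. ZFP36L2, a protein that speeds decay of AU-rich messages, rose by 0.87 ± 0.059 to 2253, 2210 and 2111, from 1232, 1160 and 1193 with PBS. ASAH1, acid ceramidase of the lysosome, rose by 0.80 ± 0.10 to 1833, 1811 and 1606, from 977, 1053 and 991. Against isotype the rises of these genes were 0.92, 0.98, 0.76 and 0.77. PIGR, the polymeric immunoglobulin receptor, rose by 0.93 ± 0.21 (adjusted p = 0.0035) but only by 0.41, uncalled, with the mean of its probe sets.

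RNA45SN5 is the gene symbol of a probe set for the precursor of ribosomal RNA, which is made from many near-identical copies, so the probe cannot tell which copy it reads. It read 2501, 2941 and 2504 with rituximab, 650, 672 and 858 with PBS and 1286, 1300 and 1122 with isotype. It rose by 1.87 ± 0.12 (adjusted p = 1.9e-18) against PBS and by 1.10 against isotype, and the isotype group itself lay above PBS by 0.77 (adjusted p = 3.2e-05). Of 16 tested MYC targets and ribosome biogenesis genes 3 were higher and 0 lower (18.8%, beside 4.55% of all genes), with a median of 0.10. POLR1B, a subunit of RNA polymerase I, was higher by 0.33 ± 0.053 (0.26, uncalled, with the mean of its probe sets) and WDR12, a ribosome assembly factor, by 0.29 ± 0.049. RRP9 was higher by 0.47, a call that ended in 8 of the 16 alternative fits, among them without rituximab replicates 1 or 3 or PBS replicates 1 or 2 (0.37 to 0.58). NPM1 at -0.12, NCL at -0.05 and ODC1 at -0.05, abundant members of the list, were not called.

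**Figure D2:**
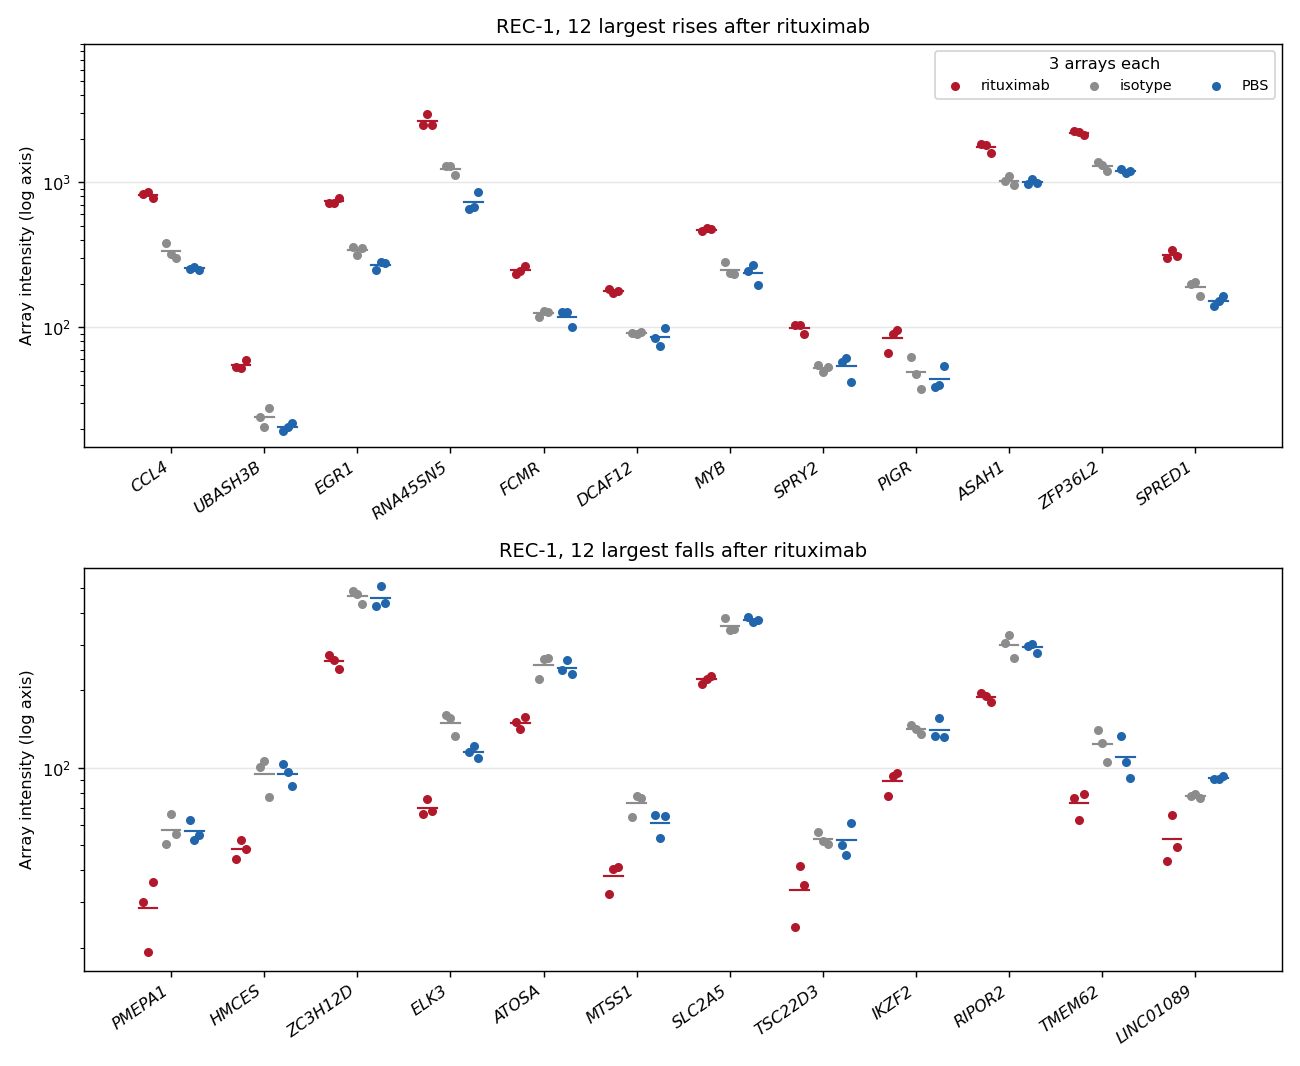
Intensity on a log axis of the 12 largest firm rises (top) and 12 largest firm falls (bottom) in REC-1 cells, with 1 point per array and a bar at the mean of each group of 3. By the choice of these genes the red rituximab points lie outside all 6 control points; CCL4 sits at 782 to 852 against 250 to 381 in the controls, and ZC3H12D at 242 to 274 against 427 to 509.

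Among the 12 largest falls, SLC2A5, a fructose transporter, read 212, 222 and 228 with rituximab, 385, 370 and 377 with PBS and 382, 345 and 346 with isotype. It fell by 0.77 ± 0.083 on the log2 scale (adjusted p = 9.5e-10) against PBS and was at -0.69 against isotype. ZC3H12D, a CCCH zinc finger RNase of lymphocytes, read 274, 263 and 242, against 427, 509 and 436 with PBS and 485, 473 and 433 with isotype, a difference of -0.81 ± 0.12 (adjusted p = 1.7e-06). HMCES, which shields abasic sites in single-stranded DNA, read 44.3, 52.5 and 48.3, against 103, 96.5 and 84.7 with PBS and 101.03, 106 and 77.3 with isotype, at -0.97 ± 0.15 (adjusted p = 5e-06). The choice of the falls required the rituximab arrays of these 3 genes to lie below every control. ELK3, an ETS factor related to ELK1, was at 66.4, 75.8 and 67.8 with rituximab, 116, 122 and 110 with PBS and 161, 156 and 133 with isotype, a difference of -0.73 against PBS and -1.09 against isotype.

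RIPOR2, an inhibitor of RHOA, fell to 195, 191 and 180 from 298, 304 and 280 with PBS, a difference of -0.64 ± 0.12 (adjusted p = 0.00014). ATOSA was at -0.71, and with RIPOR2, ELK3, SLC2A5, ZC3H12D and HMCES it kept its call against PBS in all 16 alternative fits. IKZF2, a zinc finger factor of the Ikaros family, was at -0.66 and TSC22D3, the glucocorticoid-induced leucine zipper, at -0.67, both called; the mean of their probe sets gave -0.33 and -0.50, uncalled, and TSC22D3 also lost its call when only REC-1 arrays were fitted. PMEPA1, a TGF-beta target that inhibits SMAD signalling, fell from 62.6, 52.6 and 54.8 with PBS to 30.2, 19.2 and 36.0, with 50.5, 66.2 and 55.5 for isotype. Its difference was -1.04 ± 0.18 (adjusted p = 4.7e-05), uncalled at -1.11 with the mean of its probe sets. The remaining falls were weaker: MTSS1 at -0.70 lost its call without rituximab replicate 1 (-0.79 to -0.58 over single omissions), LINC01089 at -0.81 lost it there too (-0.98 to -0.68), and TMEM62 at -0.59 lost it without rituximab replicates 1 or 2 or PBS replicates 1 or 2 (-0.71 to -0.44). LINC01089 did not pass against isotype (-0.58, adjusted p = 0.077).

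Of 21 tested components of B cell receptor signalling 2 were higher and 1 lower (14.3%, beside 4.55% of all genes), with a median of -0.06. NFATC1, the transcription factor that calcium signals send to the nucleus, read 2263, 2188 and 2414 with rituximab, 1405, 1390 and 1441 with PBS and 1327, 1244 and 1332 with isotype. It rose by 0.70 ± 0.12 (adjusted p = 4.6e-05) against PBS and by 0.81 against isotype, but its mean over probe sets gave 0.43, uncalled. MALT1, a protease that links the receptor to NF-kB, rose by 0.41 ± 0.053 (adjusted p = 1.5e-07), from a mean of 590 to 782, with 670 in the isotype group. SYK, a kinase of receptor signalling, was at -0.20 ± 0.048 (adjusted p = 0.0046), and at -0.03 with the mean of its probe sets. CD79A at -0.08, CD79B at -0.14, BTK at 0.20, LYN at -0.11 and PLCG2 at -0.06 were not called. Of the 7 tested B cell markers 0 were called by limma (beside 4.55% of all genes), with 0 at an unadjusted p under 0.05.

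CCL4 is also a target of NF-kB, and the part of NF-kB in its rise was not tested. Of 19 tested members of the NF-kB list 2 were higher and 2 lower against PBS (21.1%, beside 4.55% of all genes). The median was -0.15, beside 0.01 over all genes, and 16 of the 19 were below 0. Against isotype 1 was higher and 6 lower, beside 3.11% and 2.06% of all genes. The median there was -0.23, beside -0.02 over all genes. CD40, the receptor for T cell help, read 218, 261 and 222 with rituximab, 316, 326 and 333 with PBS and 331, 285 and 263 with isotype. The rituximab arrays were the 3 lowest, and the difference was -0.48 ± 0.091 (adjusted p = 0.00027) against PBS and -0.32 against isotype. NFKBIZ, a nuclear IkB protein, was at -0.53 ± 0.15 (adjusted p = 0.025), a call that ended without rituximab replicates 2 or 3 or PBS replicates 2 or 3 (-0.59 to -0.47) and at -0.19 with the mean of its probe sets. NFKBIE, an inhibitor of NF-kB, was higher by 0.47 ± 0.11 (adjusted p = 0.0071) against PBS and by 0.10 against isotype; it lost the call without rituximab replicate 2 or PBS replicate 3 (0.32 to 0.59). NFKBIA at -0.04, NFKB1 at -0.04 and TNFAIP3 at -0.32 were not called against PBS. Against isotype TNFAIP3, REL and CD83 were lower and called, at -0.49, -0.27 and -0.36. Of 14 tested B cell activation markers only CD40 was called against PBS (7.14%, beside 4.55% of all genes). CD69 was at 0.28 (adjusted p = 0.11).

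**Figure D3:**
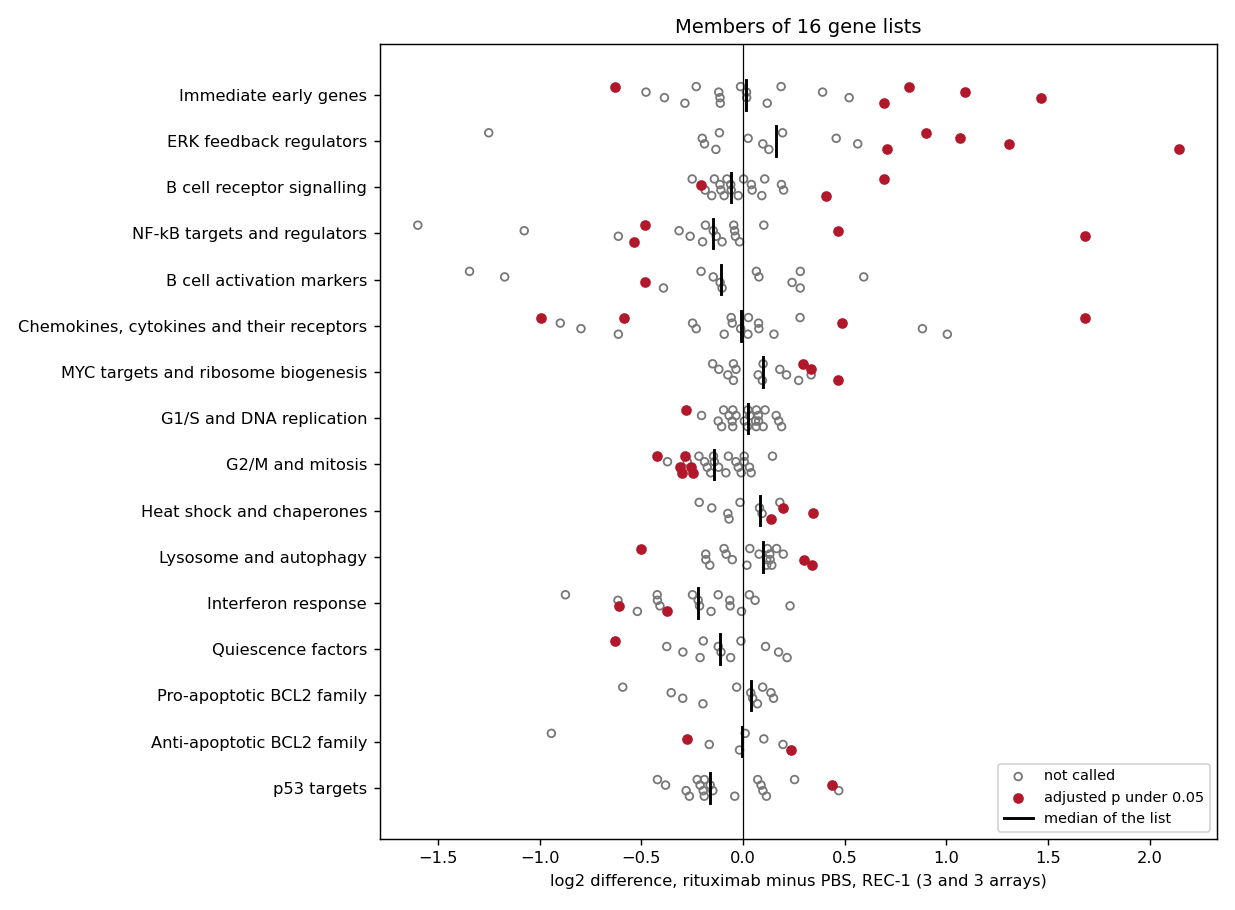
Log2 difference of rituximab from PBS in REC-1 cells for the tested members of 16 gene lists, 1 point per gene, 3 arrays per group. Filled points passed the adjusted p of 0.05 and the black bar is the median of the list: the ERK feedback list has 5 filled points, all right of 0, the G2/M list has 6, all left of 0, and the pro-apoptotic list has none. Of all genes tested 4.55% passed that threshold.

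The list of chemokines, cytokines and their receptors had 2 higher and 2 lower of 21 tested members (19%, beside 4.55% of all genes). CCL4 was 1 of them, and the median was -0.01. IL10RA, a chain of the interleukin-10 receptor, fell from 494, 466 and 471 with PBS to 320, 300 and 334, with 524, 466 and 365 for isotype, a difference of -0.59 ± 0.091 (adjusted p = 9.2e-06). IL21R was higher by 0.49 (adjusted p = 0.008) with overlapping arrays, a call that ended without rituximab replicates 1 or 3 or PBS replicate 2 (0.29 to 0.64). CCR7, the homing receptor, was at -0.99 from means of 14.3 to 8.16, and at -0.01 with values under 16 set to 16; without rituximab replicates 1 or 2 or PBS replicate 1 it was not called (-1.50 to -0.74). CCL3, a chemokine related to CCL4, was not among the genes tested. Of 11 complement regulators and Fc receptors 0 were called by limma (beside 4.55% of all genes), with 1 at an unadjusted p under 0.05.

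Among genes of cell death, of 11 tested pro-apoptotic BCL2 family members 0 were called against PBS by limma, beside 4.55% of all genes. At an unadjusted p under 0.05 there was 1. BCL2L11 (BIM) was at 0.14 (adjusted p = 0.73) and PMAIP1 (NOXA) at 0.15 (adjusted p = 0.34). Of 8 anti-apoptotic members (25% called, beside 4.55% of all genes) BCL2 was higher by 0.24 ± 0.066 and MCL1 lower at -0.28 ± 0.072. Both calls were fragile: BCL2 lost it without rituximab replicates 1 or 3 or any PBS replicate (0.21 to 0.27), and MCL1 without rituximab replicate 2 or PBS replicates 1 or 2 (-0.37 to -0.22). Among 19 tested p53 targets, TIGAR, a phosphatase that slows glycolysis, was the 1 called gene (5.26%, beside 4.55% of all genes). Its mean was 342 against 253 with PBS and 267 with isotype, a rise of 0.44 ± 0.053 (adjusted p = 2.2e-08).

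Of 24 tested G1/S genes RRM2, a subunit of ribonucleotide reductase, was the 1 called (4.17%, beside 4.55% of all genes): it read 1950, 1935 and 1883 with rituximab, 2402, 2359 and 2256 with PBS and 2346, 2274 and 2317 with isotype, a difference of -0.28 ± 0.038 (adjusted p = 3.9e-07), and -0.27 against isotype. Of 25 tested G2/M genes 6 were lower and 0 higher against PBS (24%, beside 4.55% of all genes), with a median of -0.15. But against isotype 0 were lower and 2 higher, beside 2.06% and 3.11% of all genes, with a median of 0.03. The isotype group was itself below PBS: 5 of the 25 were lower in that comparison, beside 0.202% of all genes, with a median of -0.16. BUB1B, a spindle checkpoint kinase, shows the pattern with 1448, 1355 and 1365 for rituximab, 1700, 1771 and 1688 for PBS and 1456, 1330 and 1424 for isotype. It was at -0.31 ± 0.066 (adjusted p = 0.0015) against PBS, at -0.01 against isotype, and at -0.29 (adjusted p = 0.012) for isotype against PBS. CENPE, a kinetochore motor, was at -0.30 (uncalled without rituximab replicate 2, -0.37 to -0.24) and -0.13, and KIF20A and KIF23, kinesins of cytokinesis, at -0.42 and -0.29 against PBS; KIF20A lost its call without rituximab 1 or 2 or PBS 1 or 2 (-0.50 to -0.31), and KIF23 without rituximab 2 or 3 or PBS 1 or 3 (-0.36 to -0.22). The isotype difference moved with the G2/M values, and its part in them was not tested.

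Of 11 tested heat shock and chaperone genes 3 were called against PBS (27.3%, beside 4.55% of all genes), all higher. The same 3 were lower in isotype than in PBS, a comparison in which 0.202% of all genes were called lower. CHORDC1, a partner of HSP90, read 2956, 2896 and 2779 with rituximab, 2294, 2248 and 2246 with PBS and 1465, 1553 and 1502 with isotype. It was higher by 0.35 ± 0.069 (adjusted p = 0.00058) against PBS and by 0.93 against isotype, with isotype at -0.59 (adjusted p = 8e-08) against PBS; over the mean of its probe sets the first value was 0.12, uncalled. HSPH1 and DNAJA1 were higher by 0.20 and 0.14 against PBS and lower in isotype by -0.20 and -0.23; DNAJA1 lost its call without rituximab 1 or 2, isotype 1 or 2 or any PBS array (0.10 to 0.16) and HSPH1 without rituximab replicate 2 or PBS replicate 2 (0.17 to 0.24). TXNIP, an arrestin domain protein that restrains glucose uptake, was 1 of the 12 genes whose sign differed between controls: means were 622 with rituximab, 838 with PBS and 566 with isotype, at -0.43 against PBS (-0.40 and uncalled without PBS replicate 2) and 0.14 against isotype. Its relative ARRDC2 was firm at 0.55 (0.49 to 0.66 over single omissions; uncalled without rituximab replicate 2 or PBS replicate 1).

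Smaller groups held 1 to 4 calls each, beside 4.55% of all genes called. The interferon list had 0 higher and 2 lower of 19 (10.5%), with a median of -0.22. IRF9, the DNA-binding part of the interferon factor ISGF3, fell by 0.61 ± 0.13 on the log2 scale. It read 96.7, 109 and 99.7 with rituximab and 161, 162 and 144 with PBS. MX2 at -0.37 lost its call without rituximab 1 or 2 or any PBS array (-0.58 to -0.17). In the lysosome and autophagy list 2 of 20 were higher and 1 lower (15%). Cathepsin C (CTSC) rose by 0.34 ± 0.063, from a mean of 1104 to 1397. SQSTM1 was higher by 0.30, uncalled without rituximab 2 or 3 or PBS 2 or 3 (0.25 to 0.35). TFEB, the master factor of lysosome genes, was at -0.50 ± 0.099 (adjusted p = 0.00055). Of 18 actin and adhesion genes 1 was higher and 1 lower (11.1%). RHOH, a GTPase of blood cells, was the called fall at -0.39 ± 0.081, with 0.00 over the mean of its probe sets. ITGA4 was the called rise at 0.25, lost without any 1 of the 6 arrays compared (0.24 to 0.26). SOX11, a marker of mantle cell lymphoma, read 337, 362 and 399 against 186, 208 and 289 with PBS and 209, 258 and 288 with isotype; its rise of 0.71 ± 0.18 was lost without rituximab replicate 3 or PBS replicates 1 or 2 (0.58 to 0.89).

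The calls in the metabolic lists were each lost without some single arrays. All genes were called at 4.55%. The cholesterol list had 1 of 15 (6.67%), the synthase HMGCS1 at 0.30, lost without any rituximab array or PBS 1 or 2 (0.21 to 0.35). The hypoxia and glycolysis list had 2 of 19 (10.5%). Hexokinase 2 (HK2) was at 0.45, lost without rituximab 1 or 2 or PBS 2 (0.37 to 0.51). The collagen hydroxylase P4HA1 was at 0.29, lost without any rituximab array or PBS 2 or 3 (0.26 to 0.34). The NRF2 list had 1 of 10 (10%), the cystine transporter SLC7A11 at -0.38, lost without rituximab 1 or 2 or PBS 1 or 2 (-0.45 to -0.30). Of 21 ER stress and ATF4 targets 2 were higher and 2 lower (19%). The transporter chain SLC3A2 was at 0.42, lost without rituximab 3 or PBS 2 (0.36 to 0.49). ASNS, asparagine synthetase, was at 0.19, lost without rituximab 3 or PBS 3 (0.15 to 0.22). The chaperone DNAJB9 was at -0.32, lost without any rituximab array or PBS 1 or 2 (-0.36 to -0.25). Of 11 clustered histone genes 0 were called by limma, with 2 at an unadjusted p under 0.05. The single call in the MHC class II list of 12, HLA-DQB1 at -0.75, rested on means of 13.5 and 21.5; it was lost with values under 16 set to 16 and without rituximab 1 or 3 or PBS 1 (-1.08 to -0.50).

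The response was then compared with that of the other 4 lines under the same treatment. The contrast was the REC-1 difference of rituximab from PBS minus the mean of that difference in Z138, GRANTA-519, HBL-2 and JEKO-1, and 529 genes were called (3.81%), 337 higher (2.43%) and 192 lower (1.38%) in REC-1. CCL4 differed most among the firm genes that reached an intensity of 50, by 1.53 (adjusted p = 1.2e-09). It had risen in JEKO-1 by 1.61 and in REC-1 by 1.68, with 0.14 in HBL-2, -0.40 in GRANTA-519 and -0.73 in Z138. UBASH3B differed by 1.17 (adjusted p = 0.033), a call lost without any 1 of the 6 REC-1 arrays compared (1.11 to 1.22), and DCAF12 by 0.88 (adjusted p = 0.00011). SPATA13, an exchange factor for small GTPases, differed by 0.94: it was at 0.60 in REC-1 and -0.91 in HBL-2, and the mean of its probe sets gave a difference of 0.43, uncalled. SRFBP1 differed by 0.84, lost without PBS 1 (0.67), and its rise in REC-1 itself (0.66) was lost without any rituximab array or PBS 1 or 2 (0.48 to 0.87). With isotype as the control in every line UBASH3B differed by 0.96 and SRFBP1 by 0.32, both uncalled. CCL4, DCAF12 and SPATA13 kept their calls with that control.

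MYC also differed between the lines. Its change was 0.69 in REC-1, 0.35 in JEKO-1, -0.39 in HBL-2, -0.12 in GRANTA-519 and -0.15 in Z138, and the difference of REC-1 from the others was 0.77 (adjusted p = 6.3e-12). EGR1 rose in JEKO-1 by 1.80, more than in REC-1, and in HBL-2 by 0.62, and its difference was 0.82 (adjusted p = 0.00098) against PBS but 0.27 (adjusted p = 0.5) when isotype was the control in every line. In JEKO-1 SPRY2 rose by 1.32 and NFATC1 by 0.80, beside 0.90 and 0.70 in REC-1. REC-1 and JEKO-1 were the lines in which EGR1, CCL4, SPRY2, SPRED1 and NFATC1 were called higher together; REC-1 against JEKO-1 alone was not tested. RNA45SN5 rose in all 5 lines, by 1.02 to 2.06, and its difference of 0.28 was not called (adjusted p = 0.3). With isotype as the control in every line that difference was -0.49 and was called (adjusted p = 0.014).

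Among the falls, SLC2A5 was at -0.77 in REC-1 and between -0.17 and 0.00 in the others, a difference of -0.73 (adjusted p = 2.3e-07). ATOSA differed by -0.83 (adjusted p = 7.2e-07), RIPOR2 by -0.83 (adjusted p = 1.2e-05) and HMCES by -0.96 (adjusted p = 6.6e-05). RASSF6, a RAS association domain protein, was at 639, 593 and 667 with rituximab, 1071, 1120 and 980 with PBS and 1014, 927 and 867 with isotype, and differed by -0.9995 (adjusted p = 0.0009), but in Z138 it read at background. Its means there were 1.93 with rituximab and 1, the floor, with PBS, and the resulting 0.82 enters the mean of the other lines. With values under 16 set to 16 the difference was -0.79 (adjusted p = 6.2e-10). The other 3 lines were at 0.03 to 0.16, and the mean of its probe sets gave -0.72, uncalled. APOLD1 at -1.05, KLK1 at -0.94 and FAM234A at -0.87 completed the 5 lowest among firm genes that reached an intensity of 50. The APOLD1 difference was lost without PBS 2 (-0.84), that of KLK1 without rituximab 1 or PBS 3 (-0.79 and -0.72), and that of FAM234A without rituximab 2 or 3 or PBS 1 or 2 (-1.04 to -0.70). With isotype as the control in every line KLK1 was at -0.43 and FAM234A at -0.13, both uncalled. APOLD1 was at -1.49 with that control and was called, but in REC-1 itself it was at -0.41 against isotype, uncalled (adjusted p = 0.42). The falls of these 3 genes against PBS in REC-1 itself also lost their calls. For APOLD1 (-0.80) this was without any 1 rituximab array or PBS 2 or 3 (-0.99 to -0.59). For KLK1 (-0.88) it was without rituximab 1 or PBS 3 (-1.01 to -0.66). For FAM234A (-0.84) it was without rituximab 2 or 3 or PBS 2 (-1.01 to -0.67). The rituximab arrays of KLK1 and FAM234A were below PBS but overlapped isotype; of all genes 9.78% had their 3 rituximab arrays below and 14.6% above the 3 PBS arrays.

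**Figure D4:**
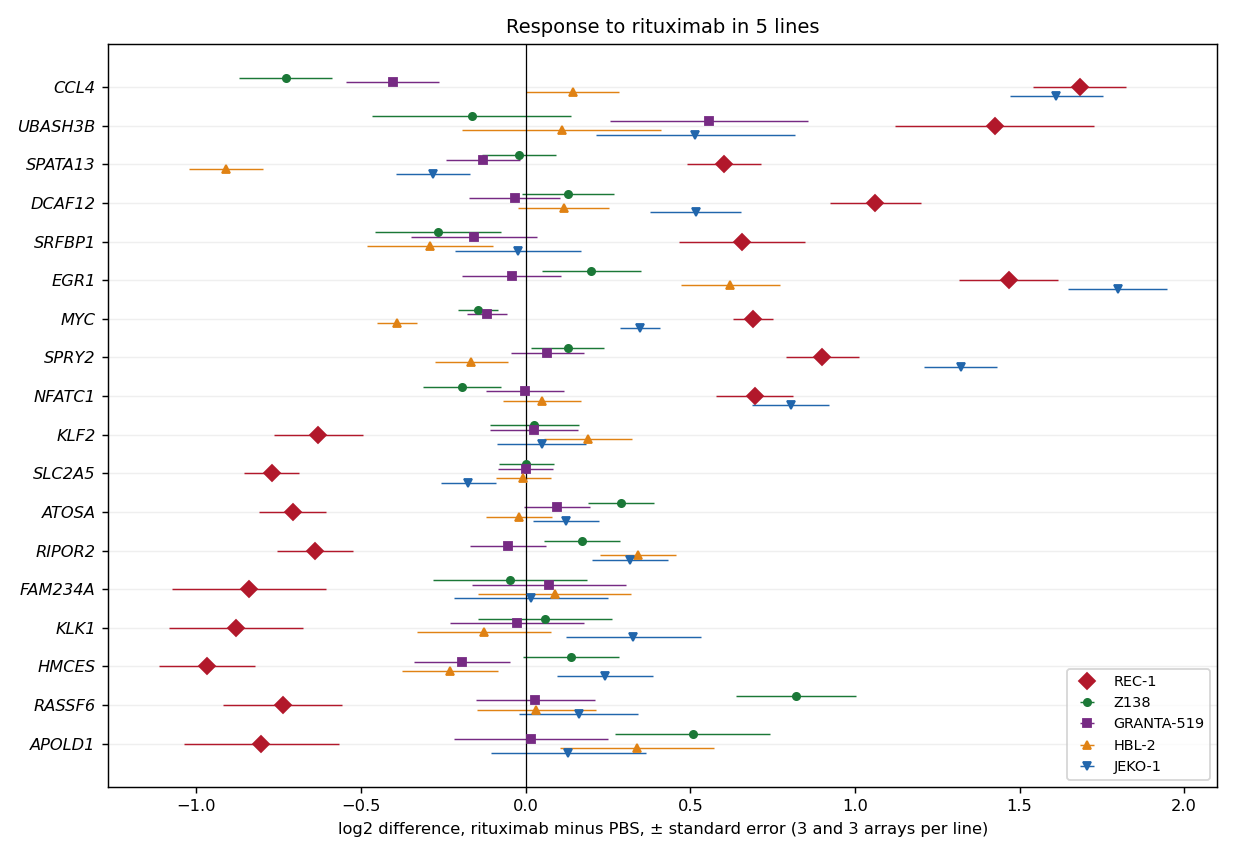
Log2 difference of rituximab from PBS, with its standard error, for 18 genes in 5 cell lines, 3 and 3 arrays per line, ordered from the largest to the smallest difference between REC-1 (red diamonds) and the mean of the other lines. JEKO-1 (blue) lies beside or beyond REC-1 for CCL4, EGR1, SPRY2 and NFATC1, while for SLC2A5, ATOSA, RIPOR2 and HMCES the other 4 lines lie between -0.23 and 0.34.

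Rituximab and GA101, both antibodies against CD20 at the same dose, gave partly different REC-1 profiles: 435 genes differed between them (3.13%), 143 higher (1.03%) and 292 lower (2.1%) with GA101. CCL4 had a mean of 1789 ± 223 with GA101, 821 ± 35.4 with rituximab and 829 ± 54.1 with both antibodies together (SD, n = 3), and the GA101 level was higher than that of rituximab by 1.12 (adjusted p = 1.1e-07). CD40 was at 0.39 against PBS with GA101 and -0.48 with rituximab, a difference of 0.87 (adjusted p = 4.7e-10). NFKBIE was higher with GA101 by 1.11 and IL21R by 0.92. MYB, by contrast, was lower with GA101, at -0.59 against rituximab (adjusted p = 9.9e-06), as were ZFP36L2 (-0.48), ASAH1 (-0.43), FCMR (-0.42) and SPRY2 (-0.42). For EGR1 the difference was -0.30 ± 0.15 and was not called (adjusted p = 0.36). With both antibodies EGR1 averaged 703 and MYC 2892, near the rituximab means of 742 and 2927.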

How the data were processed

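RNA of 75 samples was hybridised to Affymetrix expression arrays, and the 9 REC-1 arrays of rituximab, PBS and isotype control are the subject. The deposited values are linear array intensity made by the authors with MAS5, per the submitters' processing notes; no label or header states its settings or scaling target, and MAS5 values are noisy at low signal. Of 54675 probe sets, 62 controls were left out and 41097 have 1 gene symbol in the platform annotation (1801 several, 11777 none). Intensities under 1 were set to 1 and log2 was taken. A probe set was kept when its mean over the 15 arrays of at least 1 line exceeded the median of all probe sets (intensity 11.7), and the brightest probe set stood for each of 13879 genes. limma 3.58.1 in R 4.3.3 fitted 25 group means on all 75 arrays (lmFit, eBayes with trend), with Benjamini-Hochberg adjustment over all genes and a threshold of 0.05. All 75 arrays share 1 estimate of the spread per gene, with 50 residual degrees of freedom. The 3 arrays per group limit the precision. Data of the same size were simulated with noise independent between arrays, and only genes above an intensity of 50 were changed. Of these, 66% of genes changed by 0.5 and 87% of those changed by 1 were recovered as firm. Recovery of dimmer genes was not simulated.

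Named genes were MS4A1 and CCND1, the 12 largest rises and falls that were firm, outside all controls and at 50 or more in 1 group, up to 4 called members per list, and 5 per direction of the comparison with other lines. List members named without a call were chosen after their values were seen. The members and lists were chosen with earlier results of these data known. Among the 9 REC-1 arrays, deviations of same-numbered arrays correlated at -0.019 to 0.033 over 9 pairs. Pairing in the other lines was not checked in this way. A replicate block over all arrays brought the genes called against PBS from 632 to 928. Alternatives were a replicate block, quantile normalization, a floor of 16, no filter, a filter on REC-1, the mean of probe sets, REC-1 arrays alone and leaving out each of the 9 arrays.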

Additional observations from a re-analysis of the deposited data

Results flagged for a closer look

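The following genes responded differently in REC-1 than in the mean of the other 4 lines, by limma's test of that difference over all 13879 genes. Each value is the REC-1 log2 difference of rituximab from PBS minus that mean. Among signalling and transcription genes the response was higher in REC-1 for EGR1 (0.82), SPRED1 (0.79), MYC (0.77), MYB (0.65), SPRY2 (0.56), ZFP36L2 (0.55), NFATC1 (0.53), NFKBIE (0.46) and MALT1 (0.42). Among surface, secreted and lysosomal genes it was higher for CCL4 (1.53), IL21R (0.66), FCMR (0.52) and CTSC (0.34). It was also higher for UBASH3B (1.17), SPATA13 (0.94), DCAF12 (0.88), SRFBP1 (0.84), HK2 (0.53), POLR1B (0.52), HMGCS1 (0.47), TIGAR (0.44), WDR12 (0.25) and ASNS (0.19).

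The response was lower in REC-1 for the receptors and antigen presentation genes CCR7 (-1.26), HLA-DQB1 (-0.88) and IL10RA (-0.36). Among regulators of transcription and signalling it was lower for RASSF6 (-0.9995), PMEPA1 (-0.82), KLF2 (-0.70), TSC22D3 (-0.65), IKZF2 (-0.60), ELK3 (-0.54), IRF9 (-0.47) and RHOH (-0.45). Cell cycle and survival genes with a lower response were KIF20A (-0.62), BUB1B (-0.36), CENPE (-0.33), MCL1 (-0.27) and RRM2 (-0.23). The others were APOLD1 (-1.05), HMCES (-0.96), KLK1 (-0.94), FAM234A (-0.87), RIPOR2 (-0.83), ATOSA (-0.83), TMEM62 (-0.78), SLC2A5 (-0.73) and ZC3H12D (-0.55). Many of these calls did not hold under an alternative. With the mean of probe sets NFATC1 was at 0.10, MCL1 at -0.14, FCMR at 0.23, HMGCS1 at 0.27, HLA-DQB1 at -0.38, MYB at 0.43, SPATA13 at 0.43, TSC22D3 at -0.51, IKZF2 at -0.55, SPRED1 at 0.61, RASSF6 at -0.72, ZFP36L2 at 0.75, PMEPA1 at -0.76, FAM234A at -0.87, KLF2 at -0.93 and IRF9 at -0.47, all uncalled, and RHOH turned to 0.057. With quantile normalization WDR12 was at 0.18, NFKBIE at 0.42 and ASNS at 0.14, all uncalled. With a floor of 16 CCR7 was at -0.27 and HLA-DQB1 at -0.11, both uncalled. Calls were lost without any 1 of the 6 REC-1 arrays compared for UBASH3B (1.11 to 1.22), without 5 of them for IL10RA (all but rituximab 3, -0.39 to -0.32), IRF9 (all but PBS 3, -0.53 to -0.43) and MCL1 (all but PBS 3, -0.37 to -0.21), and without 4 for FAM234A (rituximab 2 or 3, PBS 1 or 2, -1.04 to -0.70). NFKBIE lost its call without rituximab 2 or 3 or PBS 3 (0.32 to 0.59), ASNS without rituximab 1 or 3 or PBS 3 (0.15 to 0.22), HK2 without rituximab 2 or PBS 2 (0.45 to 0.59), KLK1 without rituximab 1 or PBS 3 (-1.07 to -0.72) and TMEM62 without rituximab 2 or PBS 1 (-0.90 to -0.63). A single omission ended those of SPRY2 (PBS 3, 0.39), SRFBP1 (PBS 1, 0.67), CENPE (rituximab 2, -0.27), KIF20A (rituximab 1, -0.51), PMEPA1 (rituximab 2, -0.56), HLA-DQB1 (rituximab 1, -0.63), ZC3H12D (PBS 2, -0.47) and APOLD1 (PBS 2, -0.84). RASSF6 was at background in Z138. IL21R rose by 0.45 in Z138, beside 0.49 in REC-1, and was at -0.88 in HBL-2. With isotype as the control in every line the IL21R difference was 0.29, uncalled (adjusted p = 0.27). A difference from the mean of 4 lines does not show a difference from each of them. EGR1, SPRY2, SPRED1 and NFATC1 rose more in JEKO-1 than in REC-1, and MYB more in HBL-2 (1.32, beside 1.01). Other examples are FCMR, at 0.85 in both HBL-2 and JEKO-1, beside 1.07 in REC-1. In HBL-2 PMEPA1 was at -0.89, beside -1.04 in REC-1, and ELK3 at -0.62, beside -0.73. ZC3H12D was at -0.50 in both HBL-2 and JEKO-1, beside -0.81 in REC-1. REC-1 was not tested against any single line.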

How the results depend on the processing

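Of the 79 named genes, the difference from PBS kept its direction and its side of the threshold in 72 with quantile normalization, 74 with a floor of 16, 72 without the filter, 76 of 77 with the filter on REC-1, 48 with the mean of probe sets and 52 with REC-1 arrays alone. The replicate block kept all 79; with it 928 genes were called against PBS, 905 were firm and 144 differed between isotype and PBS. The isotype count was 113 with a floor of 16 and 11 with REC-1 arrays alone. With REC-1 arrays alone 427 genes were called against PBS and 421 were firm. With the mean of probe sets the counts were 380 against PBS, 357 against isotype, 374 firm, 165 past both controls, 291 against the other lines and 22 for isotype against PBS. Leaving out 1 array gave 402 to 655 against PBS, 509 to 721 against isotype, 393 to 637 firm, 226 to 308 past both controls, 360 to 565 against the other lines and 59 to 98 for isotype against PBS, the 98 without isotype replicate 3. Signs turned for MS4A1 against PBS (quantile 0.13, mean of probe sets 0.18, -0.048 to 0.018 over single omissions, with 0.017 without rituximab replicate 1 and 0.018 without PBS replicate 2). With the mean of probe sets they turned for MAFF against PBS (-0.24), SQSTM1 (-0.030) and KLF2 (0.30) against isotype and RHOH against the other lines (0.057). Against isotype they turned for MX2 without rituximab replicate 1 (-0.39 to 0.016), BUB1B without rituximab replicate 2 (0.0037) or isotype replicate 1 (-0.052 to 0.013), and, without isotype replicate 3, FAM234A (-0.38 to 0.025) and NFKBIE (-0.0089 to 0.18). The cause was not tested. MAFF was near the floor, while BUB1B and MS4A1 were bright, with rituximab means of 1389 and 6101.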
